A study of Mus musculus with 4 samples.

Results

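The genes described here form the programme of G2, mitosis and cytokinesis: 43 genes listed by name as cyclins and kinases of mitotic entry, parts of the spindle, the kinetochore and its checkpoint, and factors of anaphase, chromosome condensation and cell division. Each was taken from the probe set whose annotation gives that gene symbol alone, and where a gene had several such probe sets the one with the highest mean over the arrays was used. Of the 43 genes, 42 were measured, among 19938 genes with such a probe set, and Ccnb1 (cyclin B1) was not analysed here. The cells were mouse E14 embryonic stem cells, an established line, grown with serum and leukemia inhibitory factor on fibroblasts whose division had been stopped with mitomycin C. Untreated cells gave 2 arrays, and cells given 0.5 mM valproic acid (VPA), an inhibitor of histone deacetylases, for 4 h gave 2 more. The labels give no genetic change in either group, and both groups shared the line, the feeders and the medium. Nothing in the labels says that the replicates came from separate cultures, so each p-value rests on how far these arrays lie from each other, a spread that could be technical alone.

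A cell enters mitosis when the kinase Cdk1, bound to cyclin B, is freed of inhibitory phosphate by Cdc25 phosphatases acting against Wee1. Spindle microtubules then attach to kinetochores, a checkpoint holds back anaphase until the attachments are made, and the anaphase-promoting complex with its activator Cdc20 destroys securin and cyclin B. The transcripts of these proteins rise together late in the cell cycle. Embryonic stem cells have a short G1 phase and divide fast, so that a large share of a growing culture is in S, G2 and M.

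After 4 h with VPA the mitotic genes stood close to their untreated level. Of 42 genes, 37 had a higher and 5 a lower mean with VPA, and the median log2 difference (VPA minus untreated) was 0.11. That is 88.1% higher, against 53.7% of all genes, where the median was 0.015. Of the genes at or above the median signal of all probe sets, 60.9% were higher, with a median of 0.056. The single differences of the members lay between −0.42 for Cdc20, the anaphase activator, and 0.32 for Cdc25c, a phosphatase of mitotic entry. These are changes of 1.34-fold and 1.25-fold. Cdc20 and the transcription factor gene Foxm1 were the members lower by most, and both were lower on each VPA array than on each untreated array. The upward tilt was smallest without untreated replicate 2, where 27 of 42 genes (64.3%) had a higher mean and the median log2 difference was 0.041. Of the genes at or above that median signal, 58.6% were higher in this setting, with a median of 0.042. Without untreated replicate 1 there were 37 members higher (median 0.19), without VPA replicate 1 also 37 (0.14) and without VPA replicate 2 there were 35 (0.082). In a mixed culture, a different number of cells in G2 and mitosis and a different transcript level per cell cannot be told apart.

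No mitotic gene passed the test. With limma over all probe sets and Benjamini-Hochberg adjustment, 0 members were called, as were 0 of all 35556 probe sets (0.0%), and the smallest adjusted p among the members was 0.50. At an unadjusted p under 0.05 there was 1 gene higher (2.38% of the members) and 1 lower, while of all genes 5.9% were higher and 2.71% lower by that rule. All members lay above the median signal of all probe sets, so the 11290 genes at or above it are a nearer background, and of these 9.58% were higher and 3.37% lower. Both VPA arrays lay above both untreated arrays for 15 members (35.7%) and below them for 3 (7.14%). The same held upward for 24.1% and downward for 18.1% of all genes, and for 32.2% and 16.4% of the brighter ones. No member combined such a separation with a 1.5-fold difference, which 0.973% of all genes did upward and 0.266% downward. With 2 arrays a group, the smallest two-sided p that an exact permutation test allows is 0.33, so no single gene could be called that way.

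**Figure D1:**
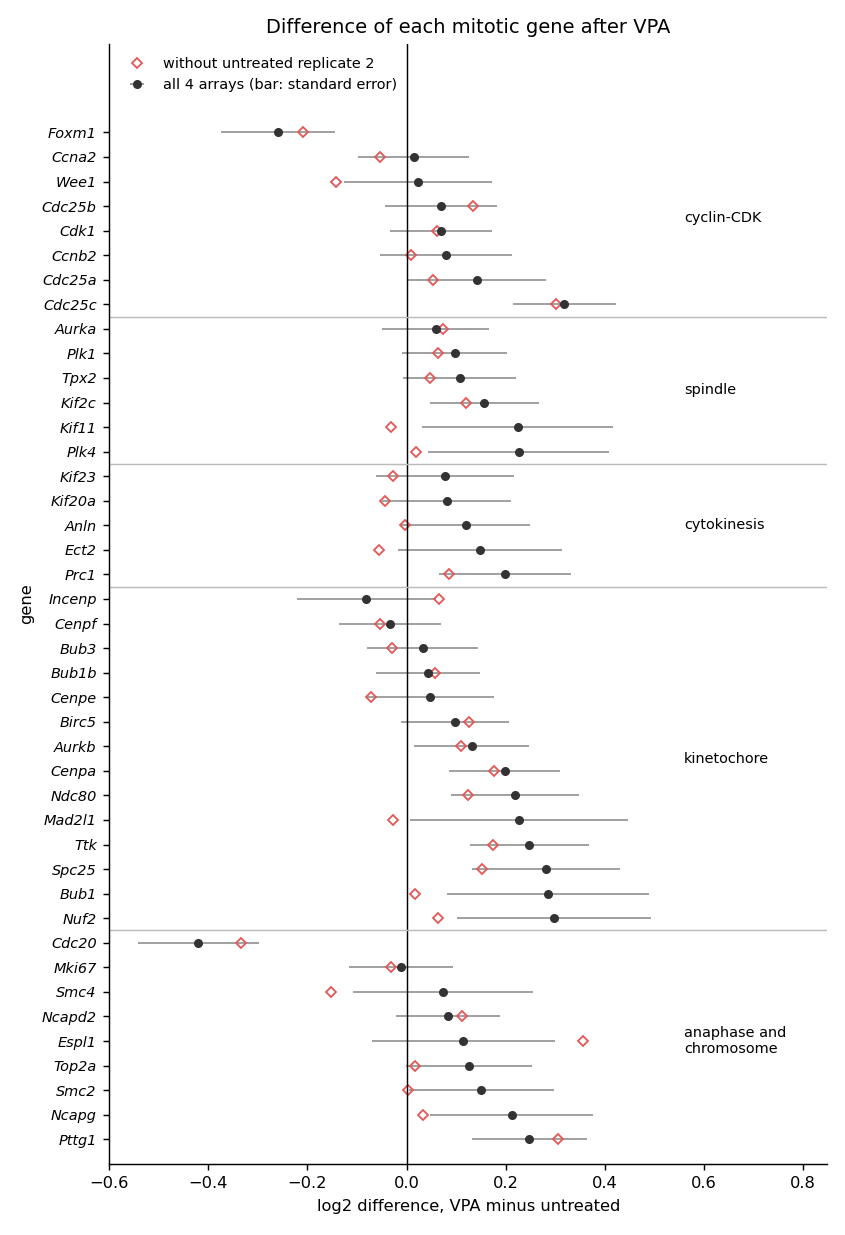
Log2 difference, VPA minus untreated, for each of the 42 measured genes, ordered within their roles; filled circles are from all 4 arrays with the standard error of the limma fit, and open diamonds leave out untreated replicate 2. Cdc20 and Foxm1 lie on the lower side in both sets and Cdc25c and Pttg1 on the higher side, while many of the other diamonds lie near 0.

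One array stood apart from the rest for these genes. Untreated replicate 2 was the lowest of the 4 arrays for 30 of 42 members (71.4%), against 30.2% of all genes and 38.8% of the brighter genes. Untreated replicate 1 exceeded it for 32 members, with a median gap of 0.14 on the log2 scale. The same gap was −0.0034 over all genes and 0.026 over the brighter genes. VPA replicate 2 was the highest array for 23 members (54.8%, against 26.5% of all genes and 32% of the brighter ones). Set against untreated replicate 1 alone, VPA replicate 1 was higher for 19 of 42 genes with a median log2 difference of −0.013. VPA replicate 2 was higher for 30 with a median of 0.073. Of the brighter genes, 57.6% and 58.4% were higher in these 2 comparisons. Over all probe sets, replicates correlated at 0.991 in the untreated group and at 0.993 with VPA. The array medians lay between 3.799 and 3.818, but the deposited distributions were not equal. Summed linear signal over all genes was 2.46e+06 and 2.32e+06 on untreated replicates 1 and 2. With VPA it was 2.44e+06 and 2.49e+06.

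**Figure D2:**
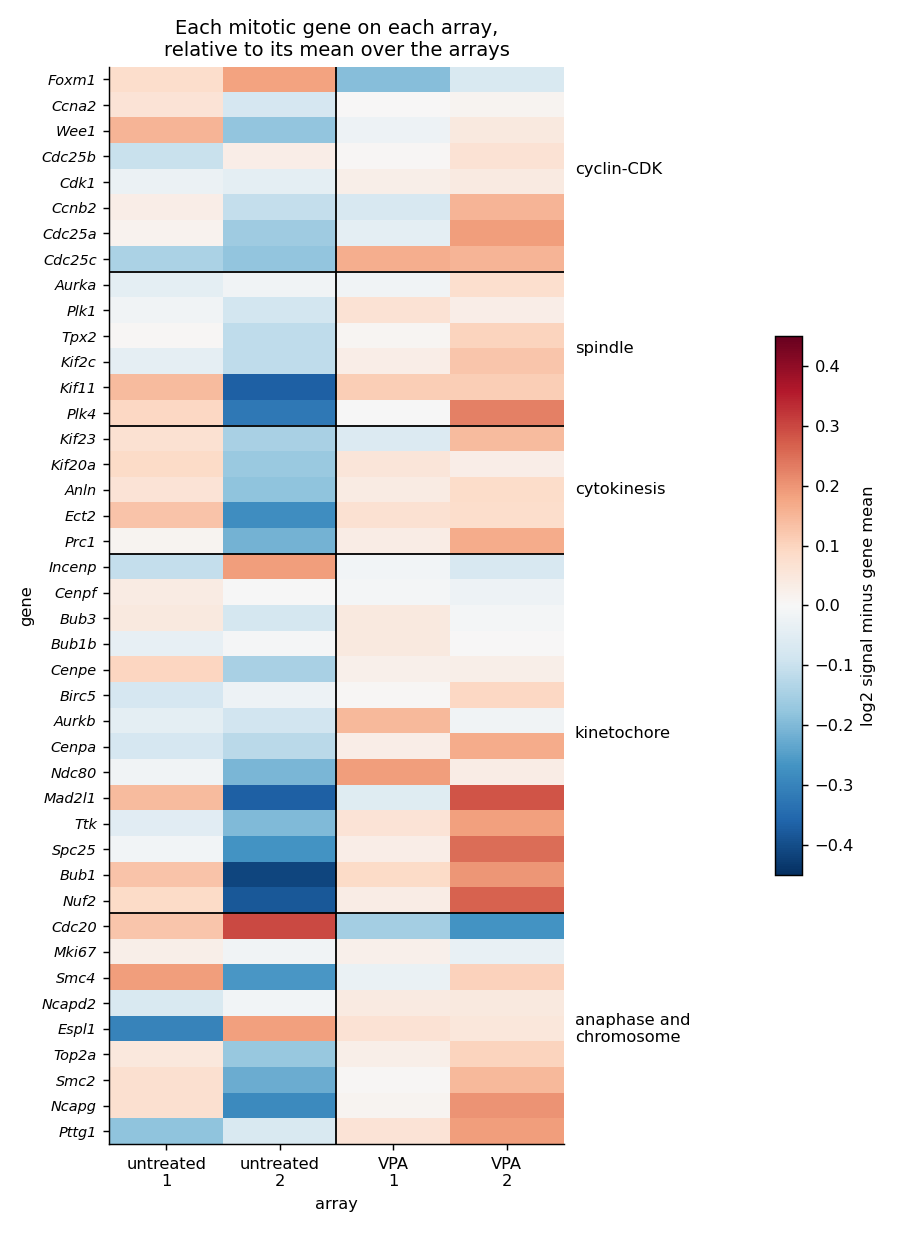
Log2 signal of each gene on each array minus that gene's mean over the 4 arrays, in colour, with the genes grouped by role; red is above and blue below the gene's mean. The column of untreated replicate 2 is blue for most genes, and Cdc20, Foxm1, Incenp and Espl1 are the 4 genes that are highest on it.

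The promoters show what the members share outside the measured values. Genes of this programme are known for 2 elements near the transcription start, the CCAAT box, which binds the factor NF-Y, and the cell cycle genes homology region (CHR), which binds the MuvB complex that represses them in G1 and activates them in G2. RefSeq promoters of build GRCm38.p6, from 250 bases before to 50 after a start, were matched for 34 of the 43 genes, Ccnb1 included, and 3 genes had a pair of overlapping windows, which gave 37 promoters. Promoters of Ccna2, Cdc25c, Wee1, Foxm1, Tpx2, Kif20a, Aurkb, Incenp and Smc4 were not used here. On either strand, CCAAT was found in 29 of them (78.4%, against 37.4% of the 19177 promoters of genes on the array). The CHR letters TTTGAA were found in 27 (73.0%, against 14.8%) and the variant TTTAAA in 10 (27.0%, against 11.5%). TTTAAA reads the same on both strands, and each set of letters was searched separately. Both a CCAAT and one of the CHR letters stood in 26 promoters (70.3%, against 9.27%). Both stood in 32 of 128 promoters of other mitotic genes and in 8 of 49 promoters of DNA replication genes (16.3%). The E2F-type letters TTTCGCGC were found in 1 member promoter (2.7%, against 0.443%). A match is a description of these letters only.

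The CHR letters of the members lay near the start, with a median position of the first base at −21 and quartiles at −111 and 17. Over all genes on the array the median was −137. The CCAAT matches of the members had a median position of −71, against −92 over all genes on the array. Among the 33 measured members with a promoter, the 27 that hold CHR letters had a median log2 difference of 0.11 and the 6 without them one of 0.24, and for CCAAT the medians were 0.097 over 25 genes and 0.22 over 8. Without untreated replicate 2 these medians were 0.033 with and 0.059 without CHR letters, and 0.033 with and 0.092 without CCAAT. The 6 genes without CHR letters include Bub1, Nuf2 and Mad2l1, which were low on untreated replicate 2. The groups without the letters are small, and the contrasts were not tested.

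**Figure D3:**
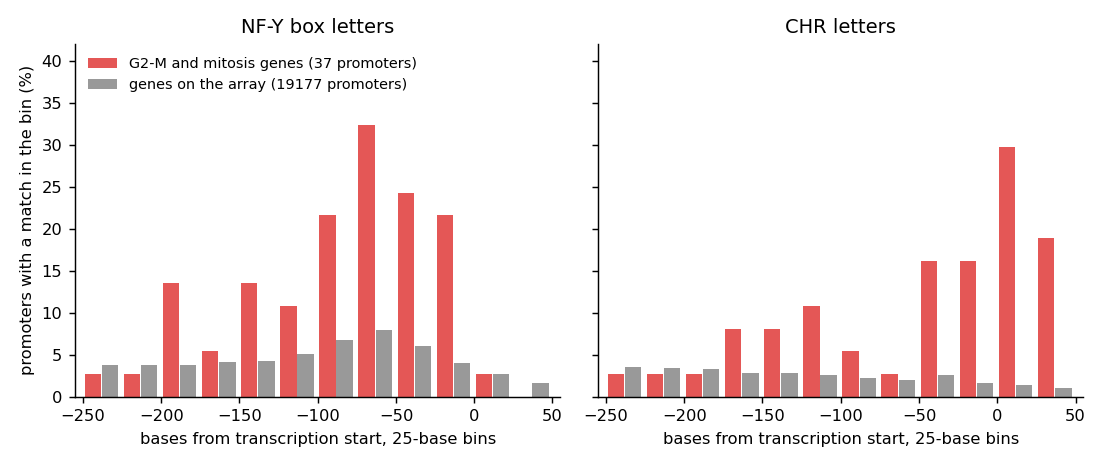
Percent of promoters with a match to the letters of the NF-Y box (left) or of the CHR (right) in bins of 25 bases along the 300-base window, for 37 promoters of the G2-M and mitosis genes (red) and 19177 promoters of genes on the array (grey). The red bars of the CHR are tallest around the start, where 29.7% of the members' promoters have a match in the first 25 bases after it.

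The sequences of 6 promoters are given because their genes lie at different points of the results. Cdc20 had the largest lower difference, Cdk1, Plk1 and Top2a lay near their untreated level, and Bub1 and Nuf2 had among the largest higher differences. Without untreated replicate 2 the log2 differences of Bub1 and Nuf2 were 0.016 and 0.064, and without untreated replicate 1 they were 0.56 and 0.53. Capitals mark CCAAT (or ATTGG, its reverse) and TTTGAA or TTTAAA (or the reverse, TTCAAA). The windows are chr4:118437294-118437593 on the minus strand for Cdc20, chr10:69352863-69353162 on the minus strand for Cdk1 and chr7:122159185-122159484 on the plus strand for Plk1. Those of Top2a, Bub1 and Nuf2 are chr11:99024140-99024439, chr2:127831810-127832109 and chr1:169531415-169531714, all on the minus strand.
Cdc20: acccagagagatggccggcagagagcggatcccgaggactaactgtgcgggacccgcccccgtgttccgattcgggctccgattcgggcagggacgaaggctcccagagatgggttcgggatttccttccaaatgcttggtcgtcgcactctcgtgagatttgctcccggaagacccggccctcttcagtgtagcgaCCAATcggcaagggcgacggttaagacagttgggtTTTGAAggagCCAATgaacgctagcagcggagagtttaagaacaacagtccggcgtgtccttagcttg
Cdk1: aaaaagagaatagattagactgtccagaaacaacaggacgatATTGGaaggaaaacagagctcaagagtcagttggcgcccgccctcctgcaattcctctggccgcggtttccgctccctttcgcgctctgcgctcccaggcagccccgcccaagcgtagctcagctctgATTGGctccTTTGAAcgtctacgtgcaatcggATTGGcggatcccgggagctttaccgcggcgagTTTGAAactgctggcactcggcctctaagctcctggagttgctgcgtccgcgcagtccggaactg
Plk1: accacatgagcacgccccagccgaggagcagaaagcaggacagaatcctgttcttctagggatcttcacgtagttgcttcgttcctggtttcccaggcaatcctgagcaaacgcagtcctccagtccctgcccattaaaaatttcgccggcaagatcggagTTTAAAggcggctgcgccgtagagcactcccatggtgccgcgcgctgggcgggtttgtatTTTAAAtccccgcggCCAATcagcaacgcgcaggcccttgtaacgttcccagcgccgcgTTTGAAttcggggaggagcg
Top2a: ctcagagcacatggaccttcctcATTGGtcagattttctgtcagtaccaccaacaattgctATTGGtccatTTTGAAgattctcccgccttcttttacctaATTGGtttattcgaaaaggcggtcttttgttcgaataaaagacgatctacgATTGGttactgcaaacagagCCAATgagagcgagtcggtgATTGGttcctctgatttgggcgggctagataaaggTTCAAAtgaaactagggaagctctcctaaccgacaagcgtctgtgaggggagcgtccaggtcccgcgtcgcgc
Bub1: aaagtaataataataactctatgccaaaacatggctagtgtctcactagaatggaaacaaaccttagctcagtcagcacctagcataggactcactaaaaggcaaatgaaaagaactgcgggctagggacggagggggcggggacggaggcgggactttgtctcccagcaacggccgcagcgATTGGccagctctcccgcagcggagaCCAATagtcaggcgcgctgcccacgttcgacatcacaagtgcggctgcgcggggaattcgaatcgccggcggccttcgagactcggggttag
Nuf2: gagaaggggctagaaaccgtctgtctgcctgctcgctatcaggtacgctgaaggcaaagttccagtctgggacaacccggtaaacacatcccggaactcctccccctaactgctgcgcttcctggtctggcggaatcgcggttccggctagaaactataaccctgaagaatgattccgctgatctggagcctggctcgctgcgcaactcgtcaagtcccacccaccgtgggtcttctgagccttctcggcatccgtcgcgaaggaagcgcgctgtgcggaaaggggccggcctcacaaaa
In the Cdc20 promoter the CHR letters begin at −18, between a CCAAT at −53 and another at −8. Cdk1 has CHR letters at −15 and −71 and 3 CCAAT matches, of which the nearest to the start is at −48. Plk1 has TTTAAA at −29 and −89, CCAAT at −14 and TTTGAA at 31. Top2a, with 6 CCAAT matches, has the most of the members, and its nearest CHR letters begin at −23. Bub1 has CCAAT at −68 and −42 and no CHR letters in this window, and Nuf2 has neither. Of other members with higher differences close to these, Spc25 (0.28) and Ttk (0.25) hold both CCAAT and TTTGAA, and Pttg1 (0.25) holds neither.

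Cyclin-CDK genes set the time of mitotic entry. The 8 measured here include the transcription factor gene Foxm1, the 1 gene of the group with a lower mean with VPA. The other 7 had a higher mean, and the median log2 difference of the 8 was 0.069. That median was 0.020 after a second quantile normalization, 0.019 without VPA replicate 2, 0.032 without untreated replicate 2 and 0.12 without untreated replicate 1. Cdk1 (probe set 10369815), the kinase that drives entry, gave log2 signals of 8.89 and 8.88 on the untreated arrays and 8.95 and 8.96 on the VPA arrays. The arrays did not overlap, but the difference was small, at 0.069 ± 0.10 (SE) with a 95% interval from −0.20 to 0.34. Of its cyclins, Ccnb2 (cyclin B2) differed by 0.079 ± 0.13 on the log2 scale, a sign that turned without VPA replicate 2. Ccna2 (cyclin A2) differed by 0.015 ± 0.11, which turned without untreated replicate 2. Wee1, the kinase that inhibits Cdk1, differed by 0.023 ± 0.15, with a sign that turned after a second quantile normalization and without either of the arrays numbered 2.

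The Cdc25 phosphatases remove the phosphate that Wee1 places. Cdc25c (10458195) was at 6.13 and 6.10 on the untreated arrays and at 6.44 and 6.43 on the VPA arrays, so that the groups were apart and each pair of replicates was close. Its log2 difference was 0.32 ± 0.10 (SE), the largest higher one among the members, with an unadjusted p of 0.028 and an adjusted p of 0.504 in limma. The difference was 0.30 without untreated replicate 2. Cdc25a differed by 0.14 ± 0.14 and Cdc25b by 0.069 ± 0.11 on the log2 scale, and in both genes the groups overlapped. Without untreated replicate 2 these differences were 0.054 and 0.13.

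Foxm1 encodes the transcription factor that activates many of the other genes here in G2. Its probe set (10542079) gave 6.32 and 6.42 on the untreated arrays and 6.05 and 6.17 on the VPA arrays. Both VPA arrays were lower than both untreated ones, with a log2 difference of −0.26 ± 0.11 (SE), an unadjusted p of 0.074 and an adjusted p of 0.569 in limma. Over the 10 alternatives the difference ran from −0.34, after a second quantile normalization and the only one with an unadjusted p under 0.05, to −0.20 without VPA replicate 1.

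**Figure D4:**
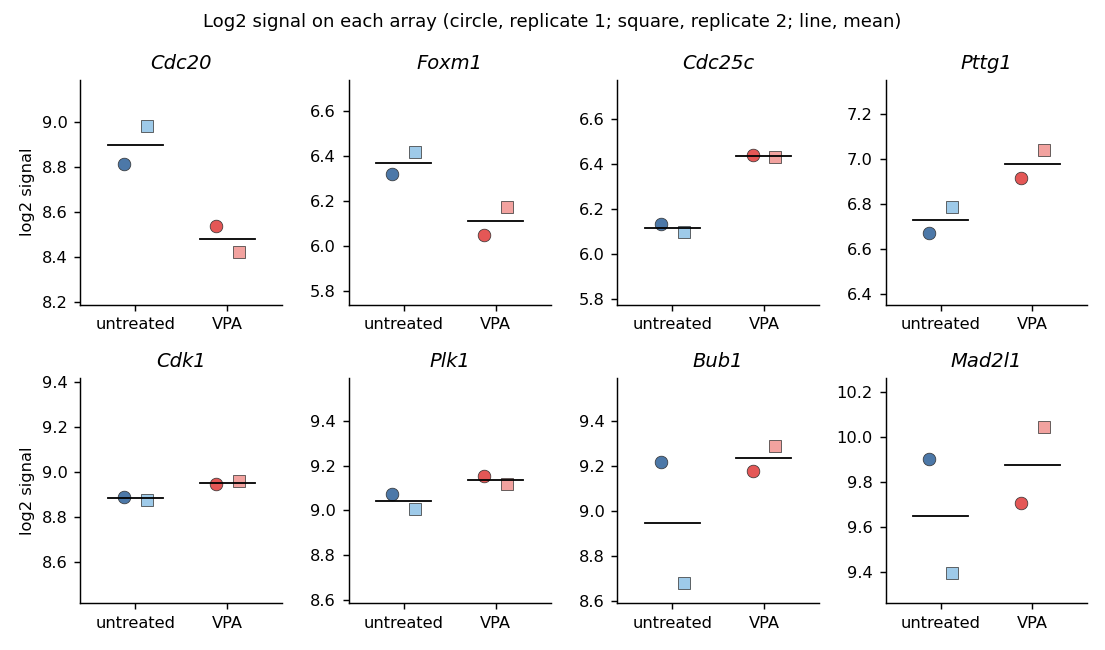
Log2 signal of 8 genes on each array, untreated in blue and VPA in red, with circles for replicate 1, squares for replicate 2 and lines at the group means; each panel spans 1 log2 unit. The groups are apart for Cdc20, Foxm1, Cdc25c, Pttg1, Cdk1 and Plk1, whereas in Bub1 and Mad2l1 untreated replicate 2 is low and untreated replicate 1 lies among the VPA arrays.

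Spindle genes build and organise the microtubule poles. All 6 had a higher mean, with a median log2 difference of 0.13 that was 0.056 without untreated replicate 2. The mitotic kinase gene Plk1 (10557156) gave 9.07 and 9.01 untreated and 9.16 and 9.12 with VPA, apart but by only 0.097 ± 0.11 (SE) on the log2 scale. Aurka (10490104), a kinase of centrosomes and spindle poles, gave 8.974 and 9.004 untreated and 9.002 and 9.094 with VPA, a difference of 0.059 ± 0.11 with overlapping groups. Tpx2, which activates Aurora A on the spindle, differed by 0.11 ± 0.11 and Kif2c, a microtubule depolymerase, by 0.16 ± 0.11, both without overlap. The larger log2 differences of Kif11, the motor that pushes the poles apart (0.22 ± 0.19), and Plk4, the kinase of centriole duplication (0.23 ± 0.18), went with a low value on 1 array. Kif11 (10462796) gave 8.89 and 8.38 untreated and 8.86 on both VPA arrays, so that only untreated replicate 2 was low, and without it the difference was −0.031. For Plk4 the untreated values were 7.11 and 6.70 and the VPA values 7.02 and 7.25. Without untreated replicate 2 the difference of Plk4 was 0.019, as that of Tpx2 was 0.048. Without untreated replicate 1 the differences of Kif11 and Plk4 were 0.48 and 0.43.

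Cytokinesis genes work at the division plane. All 5 were lowest on untreated replicate 2 and had a higher mean with VPA. Their median log2 difference was 0.12, or −0.028 without untreated replicate 2 and 0.24 without untreated replicate 1. Ect2, the exchange factor that turns on RhoA at the division plane, gave 9.98 and 9.57 untreated and 9.92 and 9.93 with VPA, a difference of 0.15 ± 0.17 (SE). Anln (anillin) differed by 0.12 ± 0.13, the kinesin genes Kif20a by 0.081 ± 0.13 and Kif23 by 0.078 ± 0.14, and these signs, with that of Ect2, turned without untreated replicate 2. Prc1, which bundles the microtubules of the central spindle, differed by 0.20 ± 0.13 and was the 1 member of the group whose arrays did not overlap. Its difference was 0.086 without untreated replicate 2.

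Kinetochore, checkpoint and chromosomal passenger genes were the largest group. Of 14, 12 had a higher and 2 a lower mean, with a median log2 difference of 0.16. That median was 0.064 without untreated replicate 2, 0.097 without VPA replicate 2 and 0.19 without untreated replicate 1. The VPA arrays were above the untreated ones for 7 of them (50%) and below for 1 (7.14%), Cenpf, where the brighter genes gave 32.2% and 16.4%. The difference from that background was not tested. Ttk, the kinase that starts checkpoint signalling (10587508), gave 7.84 and 7.69 untreated and 7.95 and 8.08 with VPA, a log2 difference of 0.25 ± 0.12 (SE) and an unadjusted p of 0.094 in limma. Spc25 (10483401), a subunit of the Ndc80 complex that holds microtubules, gave 7.81 and 7.55 untreated and 7.85 and 8.07 with VPA, a difference of 0.28 ± 0.15 that was 0.15 without untreated replicate 2. Its partner Ndc80 differed by 0.22 ± 0.13, also without overlap, and by 0.12 without that array. Cenpa (10520521), the histone variant of centromeres, gave 8.40 and 8.36 untreated and 8.51 and 8.65 with VPA, a log2 difference of 0.20 ± 0.11.

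The differences of Nuf2, Bub1 and Mad2l1 in that group changed with the untreated array that was left out. Nuf2, another Ndc80 complex subunit, gave 7.91 and 7.44 untreated and 7.86 and 8.09 with VPA. Its log2 difference was 0.30 ± 0.20 (SE) with all arrays and 0.064 without untreated replicate 2. Bub1, a checkpoint kinase, gave 9.22 and 8.68 untreated and 9.18 and 9.29 with VPA, 0.29 ± 0.20 with all arrays and 0.016 without it. Mad2l1 (Mad2, which restrains Cdc20) gave 9.90 and 9.39 untreated and 9.71 and 10.04 with VPA, 0.23 ± 0.22 and −0.027. In all 3 genes untreated replicate 1 lay between the VPA arrays and untreated replicate 2 below them. Without untreated replicate 1 the log2 differences were 0.53 for Nuf2, 0.56 for Bub1 and 0.48 for Mad2l1.

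The checkpoint genes Bub1b and Bub3 were nearly level. Bub1b (10474769) gave 9.64 and 9.67 untreated and 9.72 and 9.67 with VPA, a log2 difference of 0.043 ± 0.10 (SE) with a 95% interval from −0.23 to 0.31, and Bub3 differed by 0.033 ± 0.11. In the passenger complex, Aurkb (Aurora B) differed by 0.13 ± 0.12 and Birc5 (survivin) by 0.098 ± 0.11, both without overlap. Its scaffold Incenp (10465861) gave 8.11 and 8.40 untreated and 8.21 and 8.15 with VPA, a log2 difference of −0.082 ± 0.14 that turned to 0.065 without untreated replicate 2, the array on which it was highest. Cenpf (10360985), a protein of the outer kinetochore, gave 7.25 and 7.21 untreated and 7.20 and 7.19 with VPA, a difference of −0.033 ± 0.10. The kinetochore motor Cenpe differed by 0.048 ± 0.13, with a sign that turned after a second quantile normalization and without untreated replicate 2.

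Among the anaphase genes both directions were seen. Cdc20 (10515744) gave 8.81 and 8.98 on the untreated arrays and 8.54 and 8.42 on the VPA arrays, so that both VPA arrays were below both untreated ones. Its log2 difference was −0.42 ± 0.12 (SE), with a 95% interval from −0.74 to −0.10, an unadjusted p of 0.019 and an adjusted p of 0.499 in limma. Over the 10 alternatives it ran from −0.51 to −0.33 and its adjusted p in limma from 0.237 to 0.93. Pttg1 (10385325), which encodes securin, the inhibitor that Cdc20 marks for destruction, was at 6.67 and 6.79 untreated and at 6.91 and 7.04 with VPA. That is a log2 difference of 0.25 ± 0.12 without overlap, with an unadjusted p of 0.087. Espl1, the protease separase that securin restrains, gave 7.64 and 8.12 untreated and 8.001 and 7.989 with VPA, a difference of 0.11 ± 0.19 that turned to −0.13 without untreated replicate 1.

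The genes of chromosome structure showed small differences. Top2a (10390707), the topoisomerase that untangles sister chromatids, gave 10.08 and 9.86 untreated and 10.06 and 10.13 with VPA, a log2 difference of 0.13 ± 0.13 (SE) that was 0.017 without untreated replicate 2. Mki67 (10568714), the Ki-67 protein that coats mitotic chromosomes and is a common marker of dividing cells, gave 8.40 and 8.36 untreated and 8.40 and 8.35 with VPA. Its difference of −0.011 ± 0.11 turned in sign without untreated replicate 1 and without VPA replicate 2. The condensin subunits differed by 0.073 ± 0.18 for Smc4, 0.083 ± 0.10 for Ncapd2, 0.15 ± 0.15 for Smc2 and 0.21 ± 0.17 for Ncapg on the log2 scale. Of these only Ncapd2 had groups that did not overlap, and without untreated replicate 2 the differences were −0.15 for Smc4, 0.0040 for Smc2 and 0.033 for Ncapg. Over the 9 genes of anaphase and chromosome structure, 7 had a higher and 2 a lower mean with VPA. Their median log2 difference was 0.11, or 0.017 without untreated replicate 2 and 0.19 without untreated replicate 1.

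A wider list of 124 mitotic genes outside the members, 122 of them measured, also had more higher than lower means. Of these 94 were higher (77%, against 60.9% of the brighter genes) and 28 lower in mean with VPA, the median log2 difference was 0.11, and 0 were called. At an unadjusted p under 0.05, 9 were higher (7.38%, against 5.9% of all genes and 9.58% of the brighter ones) and 1 lower, and 68 of 122 were lowest on untreated replicate 2. Without that array 75 had a higher mean and the median was 0.048. Of its kinetochore genes 25 of 32 were higher in mean, with a median log2 difference of 0.19. Spindle and centrosome genes were higher in mean for 24 of 27 (median 0.14), cohesin genes for 8 of 11 (0.051) and subunits and regulators of the anaphase-promoting complex for 10 of 16 (0.043).

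The genes of smallest p in that list differed by more than any member on the higher side. Cenpl, of the inner kinetochore, was at 4.90 and 4.81 untreated and 5.46 and 5.39 with VPA, a log2 difference of 0.57 ± 0.11 (SE) with an adjusted p of 0.462 in limma. Haspin, a kinase of histone H3 at centromeres, differed by 0.46 ± 0.11, and Dsn1 and Zw10, both of the kinetochore, by 0.56 ± 0.15 and 0.38 ± 0.11. Lin52, a subunit of the MuvB complex, differed by 0.45 ± 0.11, and its other probe set also gave 0.45. On the lower side stood Gtse1, a microtubule-associated protein of G2 cells, at 9.04 and 9.15 untreated and 8.78 and 8.73 with VPA, a log2 difference of −0.33 ± 0.11 with an adjusted p of 0.504. Mybl2 (B-Myb), which joins MuvB ahead of Foxm1, differed by −0.26 ± 0.11 without overlap. Cdca8 (borealin, of the passenger complex) differed by −0.27 ± 0.11, and Cenpm and Pmf1, of the kinetochore, both by −0.32. In all 5 the VPA arrays were below the untreated ones.

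**Figure D5:**
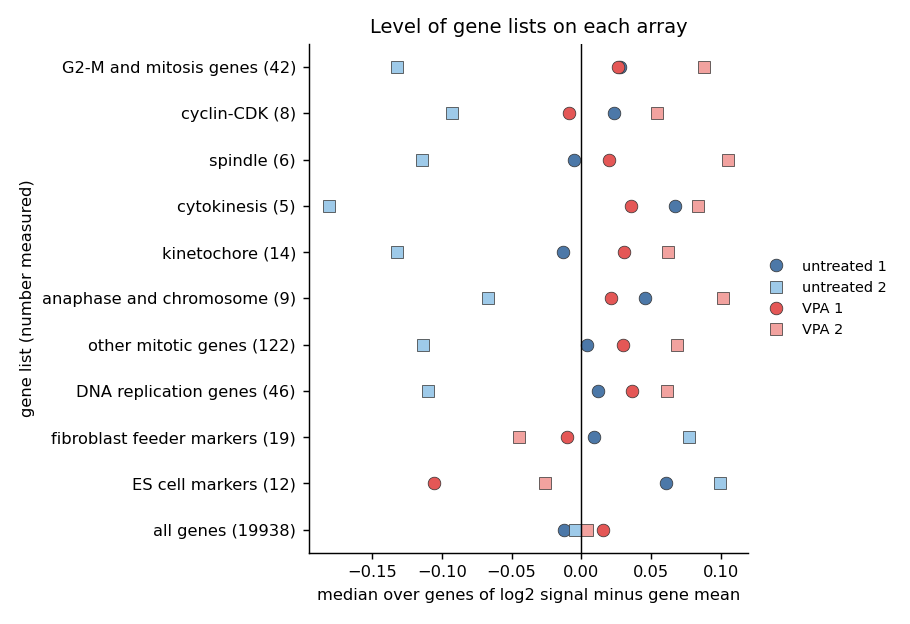
Median, over the genes of a list, of the log2 signal on an array minus the gene's mean over the 4 arrays, with untreated arrays in blue and VPA arrays in red (circles, replicate 1; squares, replicate 2). Untreated replicate 2 is the lowest array in every list of mitotic and replication genes shown, at −0.13 for the 42 members, while it is the highest for the fibroblast and the ES cell markers.

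DNA replication genes, the list most like the mitotic one, were also lowest as a group on untreated replicate 2. Of 46 measured, 31 had a higher and 15 a lower mean with VPA, the median log2 difference was 0.10, and 25 (54.3%) were lowest on untreated replicate 2. Without that array the median was 0.040, against 0.042 over the brighter genes and 0.041 over the mitotic members. The difference between the lists was not tested.

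Markers of the cells in the culture were looked at in the same way. ES cell markers were bright on all arrays, among them Pou5f1 (Oct4) between 10.63 and 10.96, and 8 of 12 had a lower mean with VPA. Both VPA arrays lay below both untreated arrays for 7 of 12 (58.3%, against 16.4% of the brighter genes) and above them for 1. Their median log2 difference was −0.15, or −0.11 without untreated replicate 2. Nanog differed by −0.48 ± 0.14 (SE) and Sall4 by −0.43 ± 0.11, while Sox2 differed by 0.20 ± 0.19, and 0 were called. Fibroblast feeder markers had a lower mean with VPA for 15 of 19. Their summed linear signal was 3327 and 3440 on the untreated arrays and 3218 and 3234 on the VPA arrays. It was highest on untreated replicate 2, the array on which the mitotic genes were low. That sum rests mostly on the brightest markers, Vim, Fn1 and Sparc. From untreated replicate 1 to 2, Fn1 went from 9.91 to 10.05, Sparc from 9.09 to 9.18 and Vim from 10.28 to 10.21. Counted by gene, 10 of 19 were highest on untreated replicate 2 (52.6%, against 27.7% of all genes). Of the ES cell markers, 6 of 12 (50%) were highest on that array too, but their summed linear signal was lowest there. That sum was 20474 and 18701 on untreated replicates 1 and 2, and 18891 and 19288 on the VPA arrays. The feeders had been stopped from dividing, and the part of their RNA in the mitotic differences was not tested. No marker can be read as 0 in these signals, which have no detection calls. The fibroblast markers ranged from Lum, between 2.18 and 2.37, to Vim (vimentin), between 10.19 and 10.28, and Fn1 (fibronectin) was also bright, between 9.91 and 10.05.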

How the data were processed

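The authors deposited a log2 signal for each probe set on each array. The submitters' processing notes name RMA and the program Affymetrix Expression Console 1.1. RMA subtracts background, equalises the probe distributions of the arrays and then summarises probes, so that a level is relative to the rest of its array. Genome build and the set of arrays normalized together are not given in the sources used here. Symbols came from the platform annotation (21789 probe sets with 1 symbol, 1621 with several). VPA and untreated arrays were compared over all 35556 probe sets with limma 3.58.1 (lmFit, eBayes) in R 4.3.3, with treatment as the only term, 2 residual degrees of freedom and 2.93 added by moderation. The tests were two-sided with Benjamini-Hochberg adjustment over all probe sets and a threshold of 0.05. Lists are described by counts and medians, without a test. The members and lists were chosen with earlier results of these data known. Per-array values are given for the 5 members of smallest p in each direction and for 9 genes listed with the rule. Of the genes so listed, Ccnb1 was not analysed and has none. Per-array values are also given for others chosen after their values were seen. Of the wider list, the 5 genes of smallest p per direction are named. Promoters are from the RefSeq table of GRCm38.p6. There were 10 alternatives, covering scaling, a filter on dim probe sets, moderation, the replicate block, each array left out and the mean of a gene's probe sets. The fit was tested on simulated data. Precision is limited by there being 2 arrays in each group.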

Additional observations from a re-analysis of the deposited data

How the results depend on the processing

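No member was called under any of the 10 alternatives, and 27 of 42 kept 1 sign throughout (24 higher, 3 lower). After a second quantile normalization the median log2 difference of the members was 0.069, against 0.11 in the main fit. Over the brighter genes it was 0.011, against 0.056. The group medians were then 0.020 (cyclin-CDK), 0.097 (spindle), 0.070 (cytokinesis), 0.12 (kinetochore) and 0.053 (anaphase and chromosome), each lower than in the main fit. Wee1 was −0.015 and Cenpe −0.028 in that setting. At an unadjusted p under 0.05 it gave 0 higher and 2 lower members (Cdc20 and Foxm1). The labels do not say whether arrays of the same replicate number were handled together. The gap between replicates 1 and 2 correlated at −0.097 between the groups over probe sets, which cannot settle that, with 1 gap a group. With the replicate block 0 members were higher and 1 lower at an unadjusted p under 0.05 in limma. With 1 array left out in turn, signs turned for 15 members, 12 of them without untreated replicate 2. The log2 differences then ran from −0.054 to 0.084 for Ccna2, −0.034 to 0.19 for Ccnb2, −0.14 to 0.19 for Wee1, −0.031 to 0.48 for Kif11, −0.044 to 0.21 for Kif20a, −0.028 to 0.18 for Kif23, −0.0024 to 0.24 for Anln and −0.056 to 0.35 for Ect2. They ran from −0.23 to 0.065 for Incenp, −0.029 to 0.094 for Bub3, −0.027 to 0.48 for Mad2l1, −0.072 to 0.17 for Cenpe, −0.13 to 0.36 for Espl1, −0.15 to 0.30 for Smc4 and −0.037 to 0.016 for Mki67. Group medians ran from 0.019 to 0.12 (cyclin-CDK), 0.056 to 0.18 (spindle), −0.028 to 0.24 (cytokinesis), 0.064 to 0.19 (kinetochore) and 0.017 to 0.19 (anaphase and chromosome), and that of all members from 0.041 to 0.19. Members at an unadjusted p under 0.05 ran from 0 to 3 higher (Kif11, Bub1 and Nuf2 without untreated replicate 1) and 0 to 1 lower, and such probe sets in all from 1827 (without VPA replicate 2) to 4242 (without untreated replicate 1). The causes were not tested.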
